A study of Homo sapiens with 6 samples.

Results

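The 10 genes described here encode the subunits of the transcription factor NF-kB (NFKB1, NFKB2, RELA, RELB and REL), its cytoplasmic inhibitors of the IkB family (NFKBIA, NFKBIB and NFKBIE) and 2 feedback genes (TNFAIP3 and BIRC3). They were chosen by symbol from a table of estimated counts for 59715 Ensembl genes, and all 10 were found and had enough counts to be tested. Poly(A)-selected RNA was read in HCT116, a cell line established from a human colorectal carcinoma, in 3 libraries of MLL4-knockout cells (MLL4KO) and 3 libraries of wild-type cells (MLL4WT). Cells of both genotypes were grown in medium with serum, and the labels name no treatment or NF-kB stimulus. MLL4 is a histone methyltransferase that marks enhancers. The labels give neither the place of the deletion nor the number of knockout clones, and they do not say whether replicates were separate cultures, so p-values measure the spread between these libraries.

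NF-kB proteins bind DNA as dimers that IkB proteins hold in the cytoplasm of resting cells. In the canonical route, receptors of the TNF, interleukin-1 and Toll-like families activate the IKK kinase complex, which marks IkB proteins for destruction and frees dimers that contain RELA or REL. In the noncanonical route, the kinase encoded by MAP3K14 triggers processing of the NFKB2 product, which then enters the nucleus with RELB. Many genes of the system, NFKBIA and TNFAIP3 among them, are themselves known NF-kB targets, which makes the pathway self-limiting in epithelial cells of the gut and elsewhere.

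The promoters of the 3 members below are shown because NFKB2 and NFKBIB differed between the genotypes in every setting tried and NFKBIA, a standard readout of NF-kB activity, did not pass the test. Each line gives the 250 bases before a RefSeq transcript start (build GRCh38.p14, 5′ to 3′ on the gene's strand), and capitals mark matches on either strand to the kappaB consensus, the 10-base DNA pattern that NF-kB dimers bind. Windows lie at chr10:102394328-102394577 on the plus strand for NFKB2, chr19:38899719-38899968 on the plus strand for NFKBIB and chr14:35404750-35404999 on the minus strand for NFKBIA. NFKB2 and NFKBIB have more than 1 such start, and window 2 of each is shown. Window 1 of NFKB2 and window 1 of NFKBIB held 0 consensus matches, and window 3 of NFKB2 held 2.
NFKB2: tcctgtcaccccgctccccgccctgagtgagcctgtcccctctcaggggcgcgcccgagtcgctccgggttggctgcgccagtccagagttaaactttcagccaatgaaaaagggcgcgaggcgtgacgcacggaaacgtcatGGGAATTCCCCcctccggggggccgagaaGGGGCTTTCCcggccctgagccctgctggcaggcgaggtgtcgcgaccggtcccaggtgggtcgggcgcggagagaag
NFKBIB: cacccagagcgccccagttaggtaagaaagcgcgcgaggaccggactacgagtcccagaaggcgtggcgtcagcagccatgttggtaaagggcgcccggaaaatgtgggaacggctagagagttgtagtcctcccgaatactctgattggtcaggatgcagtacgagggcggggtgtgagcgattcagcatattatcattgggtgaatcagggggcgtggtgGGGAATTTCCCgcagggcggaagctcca
NFKBIA: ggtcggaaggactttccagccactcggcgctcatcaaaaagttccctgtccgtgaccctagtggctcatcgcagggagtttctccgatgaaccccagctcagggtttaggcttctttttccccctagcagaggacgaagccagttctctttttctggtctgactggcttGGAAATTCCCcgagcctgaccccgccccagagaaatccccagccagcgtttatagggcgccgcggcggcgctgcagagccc

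RefSeq promoter windows of 300 bases were at hand for 8 members, all but RELB and NFKBIE. Of these 8, 7 held the kappaB consensus, with RELA the exception in both of its windows. Over all 27305 genes with a window, 7.09% held the consensus. The matched letters were GGGAATTTCC in NFKB1, at 49 bases before the start, and GGGAAATTCC in REL, at 47 bases before the start. TNFAIP3 held GGAAAGTCCC and GGAAATCCCC, 67 and 55 bases before its start, and BIRC3 held GGAAATCCCC and GGAGTTCCCC, 199 and 135 bases before its start. A match describes letters in a window, not a bound site, and genes with matches were among those that fell and among those that did not pass the test.

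Library totals ranged from 14775580 to 19736751 counts in MLL4KO and from 6829400 to 17828774 in MLL4WT. The shallowest library, MLL4WT replicate 1, stood apart: scaled by its degrees of freedom, the chi-square of its counts against the other MLL4WT libraries was 7.58 and 7.61, against at most 2.48 for the other pairs within a genotype. It was also the sole library with its own code in the column names. These codes have the form of flow cell identifiers and are called that here, although no label or header says what they are. KMT2D, the gene usually meant by MLL4, was at 232 ± 9.56 CPM (counts scaled to library size) in MLL4KO and 235 ± 4.60 CPM in MLL4WT (SD, n = 3 each; edgeR adjusted p = 0.832), and KMT2B, also once called MLL4, was at 63.2 ± 3.45 and 90.5 ± 3.44 CPM (edgeR adjusted p = 2.33e-05), so whole-gene counts of KMT2D do not check the labels. Epithelial markers summed to 1087 to 1111 CPM in MLL4KO and 1622 to 1682 CPM in MLL4WT. Of the 7 tested, 5 fell, against 21.6% of all tested genes, and CDX1 was at 0. CDH1 and CDX2 did not pass (log2 fold change 0.04 and 0.10, MLL4KO over MLL4WT, edgeR adjusted p = 0.864 and 0.341). Sums of 12 immune markers were 10.0 to 11.6 CPM in MLL4KO and 7.73 to 10.5 CPM in MLL4WT, with MS4A1 and NKG7 at 0. Those of 8 fibroblast markers were 31.6 to 36.0 and 30.2 to 32.6 CPM. Those of 6 endothelial markers were 3.63 to 4.01 and 1.93 to 2.40 CPM. COL1A1, at 27.3 and 22.4 CPM, made up most of the fibroblast sum. COL1A1 and PDGFRB rose (edgeR adjusted p = 0.0106 and 0.0229). COL3A1 fell to 0.776 CPM in MLL4KO, against 5.22 CPM in MLL4WT (edgeR adjusted p = 1.57e-05), and COL1A2 did not pass. The part of these shifts in the NF-kB results was not tested.

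Across the 10 genes, NFKBIE rose and NFKB2, NFKBIB and NFKB1 fell in MLL4KO, by the edgeR quasi-likelihood test over 14543 genes at a Benjamini-Hochberg adjusted p under 0.05. The other 6 did not pass. The 4 called members are 40.0% of the set, against 41.4% of all tested genes (19.8% rose and 21.6% fell), so the share of called members is near that of the transcriptome. No member changed as much as 1.5-fold. The median log2 fold change (MLL4KO over MLL4WT) was -0.13 for the members and -0.0044 for all tested genes, and the median size of the change was 0.19 and 0.22 on the log2 scale. The CPM values of the genotypes did not overlap in 6 members, against 52.5% of all tested genes.

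**Figure D1:**
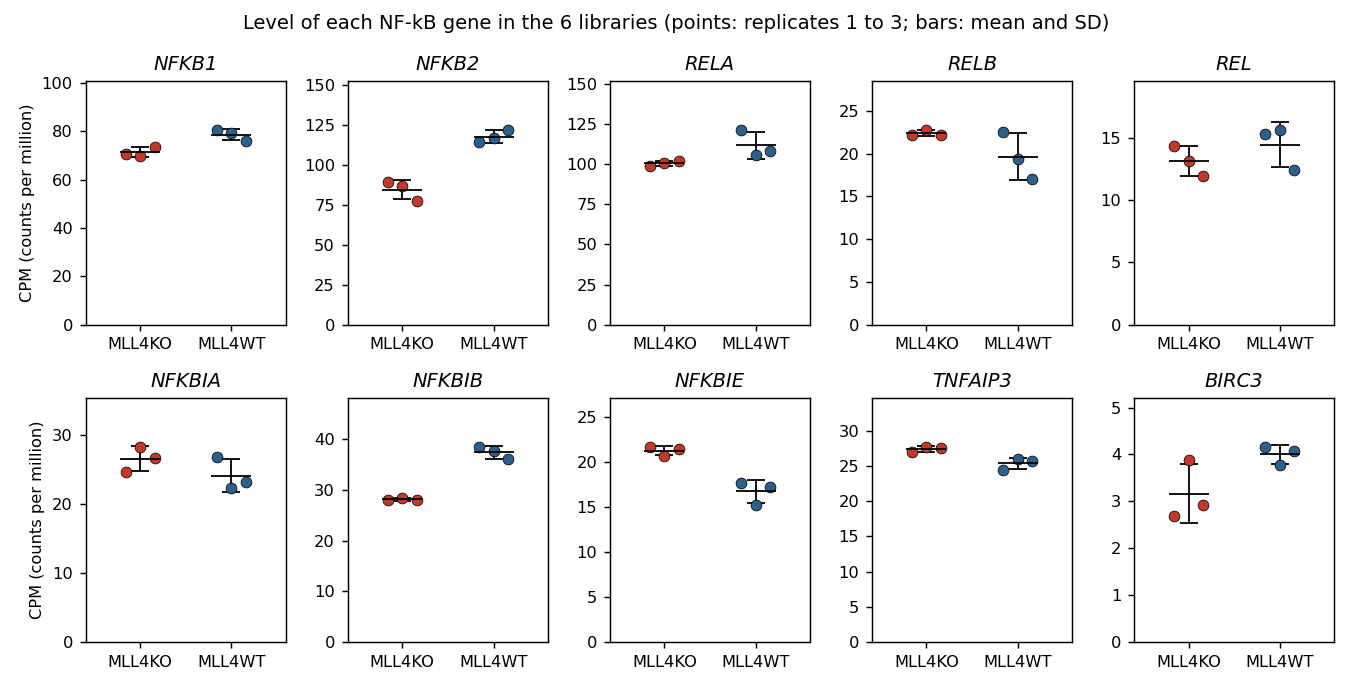
CPM (vertical axes, from 0) of the 10 NF-kB genes in the 3 MLL4KO libraries (red, left) and the 3 MLL4WT libraries (blue, right), with bars at the mean and SD. The groups separate most clearly for NFKB2 and NFKBIB, which are lower in MLL4KO, and NFKBIE, which is higher, while REL and RELB overlap.

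Among the subunits, the largest difference was that of NFKB2, which encodes the precursor of the noncanonical pathway (chromosome 10, 102394110 to 102402529). NFKB2 was measured at 89.2, 86.9 and 77.7 CPM in MLL4KO replicates 1 to 3, against 114, 117 and 122 CPM in MLL4WT replicates 1 to 3. Every MLL4KO library lay below every MLL4WT library. NFKB2 fell 1.39-fold (log2 -0.48 ± 0.06 SE, 95% interval -0.61 to -0.35, edgeR adjusted p = 5.40e-05), and it fell under all 17 alternative settings, with adjusted p between 7.02e-14 and 0.00106. Within the flow cell code shared by MLL4KO replicates 2 and 3 and MLL4WT replicate 2 the log2 difference was -0.50, and within the code shared by MLL4KO replicate 1 and MLL4WT replicate 3 it was -0.45.

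RELB, the partner subunit of processed NFKB2 (chromosome 19, 45001430 to 45038198), did not pass the test. RELB levels were 22.1, 22.8 and 22.2 CPM in MLL4KO and 22.6, 19.3 and 17.1 CPM in MLL4WT. The MLL4KO libraries lay close together, while MLL4WT replicate 1 lay among them and the other MLL4WT libraries lay below. The log2 fold change was 0.22 ± 0.09 (95% interval 0.02 to 0.42, edgeR adjusted p = 0.0730). RELB passed under 7 of 17 alternatives, so the call depends on the setting. Without MLL4WT replicate 1 the log2 fold change was 0.31 (edgeR adjusted p = 0.00263). With the flow cell code as a term it was 0.29 (edgeR adjusted p = 0.00339). Because MLL4WT replicate 1 alone has its code, that term gives it no weight in the genotype difference. The flow cell setting is thus not separate from leaving that library out. With GC and length trends removed the log2 fold change was 0.38 (edgeR adjusted p = 0.00134). With all libraries kept, the adjusted p was 0.0295 with total counts alone, 0.0315 with upper quartile factors, 0.0467 with no filter and 0.0455 with limma-voom. The ratio of RELB to NFKB2, in CPM per kb of exon, was 0.366, 0.388 and 0.422 in the MLL4KO libraries. In the MLL4WT libraries it was 0.292, 0.245 and 0.207, with no overlap. NFKB2 alone already separated the genotypes, so this ratio is not a separate result on RELB.

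NFKB1, which encodes the precursor of the DNA-binding subunit that pairs with RELA (chromosome 4, 102501329 to 102617302), was 70.8, 69.6 and 73.6 CPM in MLL4KO and 80.7, 79.4 and 76.0 CPM in MLL4WT. The groups did not overlap, but their nearest libraries, MLL4KO replicate 3 and MLL4WT replicate 3, were close. The log2 fold change of -0.14 ± 0.05 passed narrowly (95% interval -0.25 to -0.03, edgeR adjusted p = 0.0469). The call was lost under 14 of 17 alternatives, with adjusted p from 0.0147 to 0.256 over all of them. With the replicate number as a block, 1 of those alternatives, the adjusted p was 0.0728.

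RELA, the main transactivating subunit of the canonical pathway (chromosome 11, 65653596 to 65663094, minus strand), showed a difference of the same size as NFKB1 but did not pass. Its levels were 98.9, 100 and 102 CPM in MLL4KO and 121, 106 and 108 CPM in MLL4WT. Those groups did not overlap either, and MLL4WT replicate 1 was the highest library. The log2 fold change was -0.14 ± 0.06 (95% interval -0.27 to -0.02, edgeR adjusted p = 0.0589), and RELA passed under none of the 17 alternatives (adjusted p 0.0539 to 0.283).

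REL, which encodes c-Rel, a subunit best known from lymphocytes (chromosome 2, 60881521 to 60931610), was low in this line. It was at 14.4, 13.1 and 12.0 CPM in MLL4KO and 15.3, 15.6 and 12.4 CPM in MLL4WT, and the groups overlapped. The log2 fold change was -0.11 ± 0.12 with a 95% interval of -0.37 to 0.14 (edgeR adjusted p = 0.465). The within-code differences had opposite signs, -0.32 and 0.21. A same-strand gene, ENSG00000267520, shares 43.3% of the exonic bases of REL and had 161 counts in all against 1229 for REL, and how reads common to both were divided is not stated.

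The 3 inhibitors of the IkB family moved in different directions. NFKBIB, which encodes IkB-beta, an inhibitor that retains RELA and REL dimers (chromosome 19, 38899700 to 38908893), was at 28.1, 28.4 and 27.9 CPM in MLL4KO and 38.5, 37.7 and 36.1 CPM in MLL4WT. Replicates of each genotype lay close together and the groups were well apart. NFKBIB fell 1.32-fold (log2 -0.41 ± 0.06, 95% interval -0.54 to -0.27, edgeR adjusted p = 0.000318) and fell in all 17 alternatives. The fall was smaller, at log2 -0.25, once GC and length trends were removed together (adjusted p = 0.00455). SIRT2, on the opposite strand, shares 40 exonic bases (1.72%) with NFKBIB.

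NFKBIE, which encodes IkB-epsilon, an inhibitor whose transcript is induced by NF-kB (chromosome 6, 44258166 to 44265788, minus strand), was the member that rose. Its levels were 21.6, 20.6 and 21.4 CPM in MLL4KO and 17.7, 15.2 and 17.2 CPM in MLL4WT. All MLL4KO libraries lay above all MLL4WT libraries. The rise was 1.28-fold (log2 0.36 ± 0.08, 95% interval 0.18 to 0.53, edgeR adjusted p = 0.00405). It passed under 16 of 17 alternatives and was lost when all libraries were thinned to the smallest total (log2 0.24, adjusted p = 0.101). Within the flow cell codes the log2 differences were 0.47 and 0.33.

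NFKBIA, which encodes IkB-alpha, the fast-resynthesised inhibitor that ends canonical signalling (chromosome 14, 35401511 to 35404749, minus strand), was at 24.7, 28.3 and 26.7 CPM in MLL4KO and 26.9, 22.4 and 23.2 CPM in MLL4WT. The groups overlapped because MLL4WT replicate 1 lay above MLL4KO replicates 1 and 3. The log2 fold change was 0.16 ± 0.09 (95% interval -0.03 to 0.34, edgeR adjusted p = 0.156). Without MLL4WT replicate 1 NFKBIA was higher in MLL4KO (log2 0.22, edgeR adjusted p = 0.0167). It was also higher with a flow cell term (log2 0.20, edgeR adjusted p = 0.0264), which likewise gives that library no weight in the genotype difference. After correction for GC content and length the log2 fold change was 0.27 (edgeR adjusted p = 0.0178).

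The opposite changes of NFKBIB and NFKBIE altered the make-up of the IkB transcripts. The ratio of NFKBIE to NFKBIB in CPM per kb was 0.694, 0.654 and 0.690 in the MLL4KO libraries and 0.414, 0.364 and 0.430 in the MLL4WT libraries. That of NFKBIA to NFKBIB was 0.863, 0.975 and 0.937 in MLL4KO and 0.684, 0.582 and 0.628 in MLL4WT. Neither ratio overlapped between the genotypes. NFKBIB alone did not overlap either, so the ratio with NFKBIA is not a separate result on NFKBIA. The summed level of the 3 inhibitors was 30.9, 32.1 and 31.6 CPM per kb in MLL4KO and 34.7, 31.5 and 32.0 CPM per kb in MLL4WT, and these overlapped. The 5 subunits summed to 57.7, 57.4 and 56.0 CPM per kb in MLL4KO and 69.2, 65.6 and 65.7 CPM per kb in MLL4WT, without overlap. Inhibitor over subunit transcripts was thus 0.535, 0.560 and 0.564 in MLL4KO and 0.502, 0.481 and 0.486 in MLL4WT. This ratio is given as a description without a test. NFKB2 had the largest difference of the 5 subunits, with means of 18.9 CPM per kb in MLL4KO and 26.2 in MLL4WT. The subunit sum and this ratio are therefore not separate results on the other subunits.

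The feedback genes did not pass. TNFAIP3, which encodes the ubiquitin-editing enzyme A20 (chromosome 6, 137867188 to 137883312), was at 27.0, 27.7 and 27.6 CPM in MLL4KO and 24.5, 26.0 and 25.7 CPM in MLL4WT. The groups did not overlap, but the difference was small, with log2 0.10 ± 0.07 (95% interval -0.04 to 0.25, edgeR adjusted p = 0.238). BIRC3, which encodes a ubiquitin ligase of TNF receptor complexes (chromosome 11, 102317450 to 102339403), was the lowest member, at 2.69, 3.88 and 2.92 CPM in MLL4KO and 4.16, 3.77 and 4.08 CPM in MLL4WT. It rested on 28 to 71 counts per library, the groups overlapped through MLL4KO replicate 2, and the log2 fold change of -0.34 ± 0.19 had a 95% interval of -0.76 to 0.09 (edgeR adjusted p = 0.188). WAKMAR2, on the opposite strand, shares 95 exonic bases (1.88%) with TNFAIP3.

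**Figure D2:**
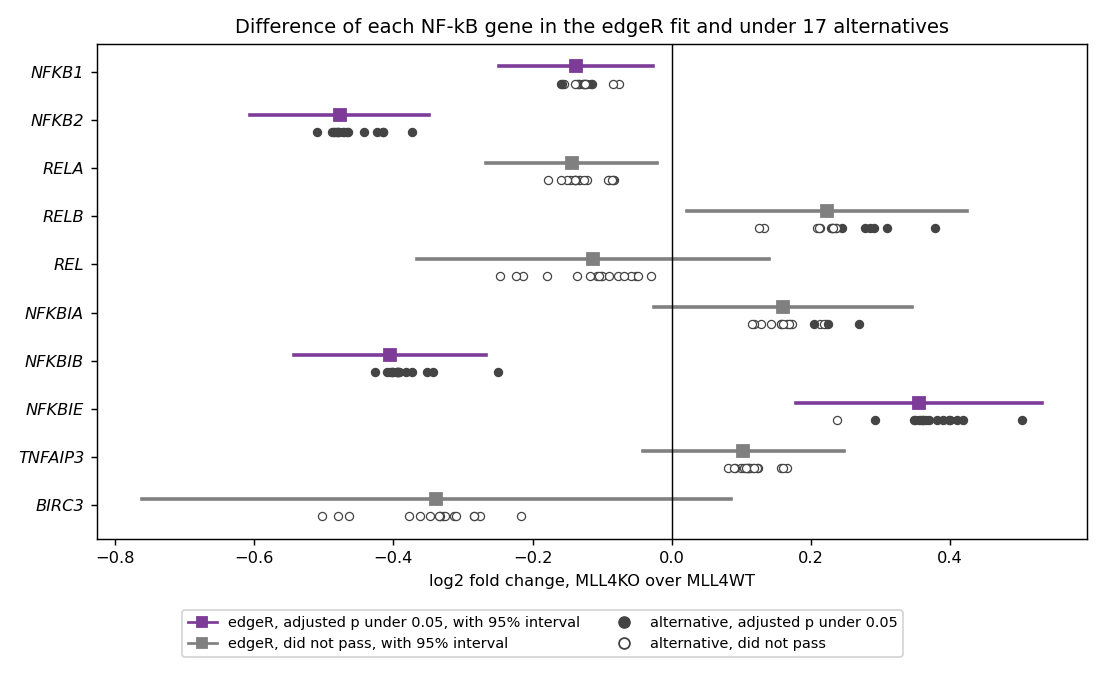
Log2 fold change of each gene, MLL4KO over MLL4WT (horizontal axis), as squares with 95% intervals from the edgeR fit, and below each the values under 17 alternative settings as circles, filled where the adjusted p was under 0.05. NFKB2 and NFKBIB are filled in all 17 settings and NFKBIE in 16, NFKB1 in 3, RELB in 7 and NFKBIA in 3, and no value under an alternative has the opposite sign.

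Set on a common scale of CPM per kb of exon, NFKB2 and RELA were the most abundant transcripts in both genotypes and REL and BIRC3 the least. NFKB2 averaged 18.9 CPM per kb in MLL4KO and 26.2 in MLL4WT, and RELA 18.4 and 20.4. In MLL4KO the libraries of NFKB2 and RELA overlapped, so their order was not resolved there, while in MLL4WT every NFKB2 library lay above every RELA library. NFKBIB averaged 12.1 CPM per kb in MLL4KO and 16.1 in MLL4WT, NFKB1 11.4 and 12.6, and NFKBIA 11.2 and 10.2. The libraries of NFKB1 and NFKBIA overlapped in MLL4KO. NFKBIE averaged 8.22 and 6.48, RELB 7.37 and 6.48, and TNFAIP3 5.43 and 5.03, and NFKBIE and RELB exchanged places between the genotypes within their spread in MLL4WT. REL was at 0.999 and 1.10, and BIRC3 at 0.421 and 0.533. When only exons of the basic transcript set were counted, RELA came before NFKB2 in both genotypes, so the order of these genes depends on the length used.

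**Figure D3:**
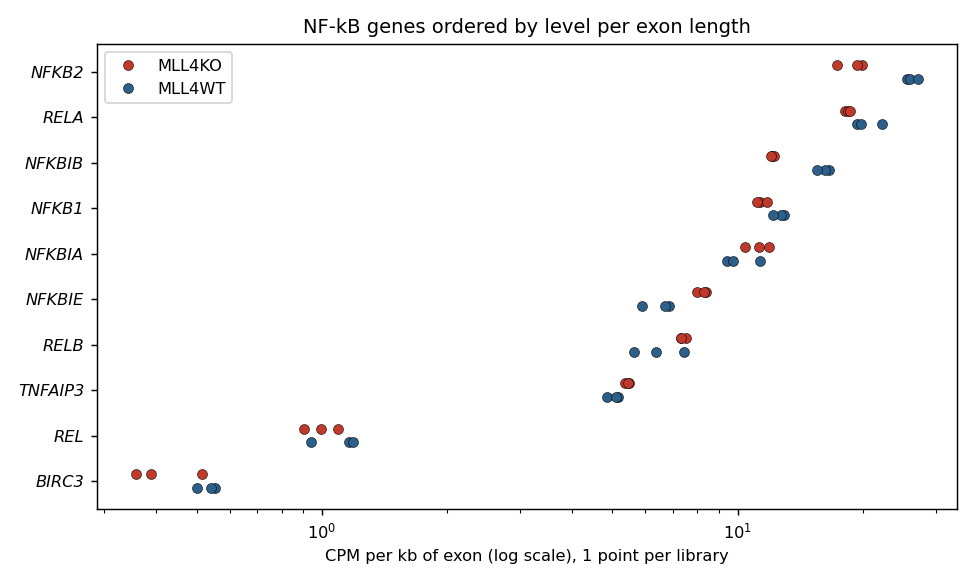
CPM per kb of exon (log scale) of the 10 genes, 1 point per library, MLL4KO in red above MLL4WT in blue, ordered by the MLL4KO mean. NFKB2 and RELA stand at the high end and BIRC3 at the low end, with NFKB2 and NFKBIB lower and NFKBIE higher in every MLL4KO library than in any MLL4WT library.

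Of 20 tested genes for other IkB-like proteins and negative regulators of the pathway, 3 rose, 5 fell and 12 did not pass (median log2 -0.07). The 40.0% called is near the 41.4% of all tested genes. CYLD, a deubiquitinase that restrains IKK signalling, rose to 31.3 ± 1.18 CPM in MLL4KO, against 24.2 ± 1.30 CPM in MLL4WT (edgeR adjusted p = 0.00164). RNF11, a partner of A20, rose 1.17-fold and OTULIN, which cleaves linear ubiquitin chains, rose 1.16-fold (edgeR adjusted p = 0.00608 and 0.0411), with the OTULIN call lost under 7 of 17 alternatives. NKIRAS2, which encodes a Ras-like protein that binds IkB, fell 1.41-fold, NFKBIL1, an IkB-like gene, fell 1.40-fold, PDLIM2, which encodes a ligase that promotes RELA turnover, fell 1.57-fold and the A20 adaptor gene TAX1BP1 fell 1.18-fold (edgeR adjusted p between 0.000161 and 0.00317). The atypical IkB genes BCL3, NFKBIZ and NFKBID had log2 fold changes of -0.29, 0.32 and -0.27 and did not pass (edgeR adjusted p = 0.0924, 0.275 and 0.161).

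Of 43 tested genes that carry the signal from receptors to IKK and on to IkB destruction, 6 rose, 12 fell and 25 did not pass (median log2 0.01). The 41.9% called is near the 41.4% of all tested genes, of which 19.8% rose and 21.6% fell. MALT1, the paracaspase of the adaptor complex with BCL10, had the smallest adjusted p and fell to 34.3 ± 1.37 CPM in MLL4KO, against 64.3 ± 1.84 CPM in MLL4WT, a fall of 1.88-fold (edgeR adjusted p = 3.07e-07). All 3 subunit genes of the linear ubiquitin ligase fell, with RBCK1 at 1.41-fold, RNF31 at 1.27-fold and SHARPIN at 1.26-fold (edgeR adjusted p = 0.000709, 0.000869 and 0.00309); SHARPIN was named after its value was seen. RIPK2, the kinase downstream of NOD receptors, fell 1.38-fold (edgeR adjusted p = 0.000279). RIPK1, the scaffold kinase of TNF receptor signalling, rose 1.24-fold, MAP3K3 1.21-fold, BTRC, whose product recognises phosphorylated IkB, 1.16-fold and IRAK2 1.48-fold (edgeR adjusted p between 0.000722 and 0.0129), with the IRAK2 call lost under 4 of 17 alternatives. Of the IKK subunits themselves, named as the core of the pathway after their values were seen, CHUK fell to 102 CPM in MLL4KO, against 122 CPM in MLL4WT (log2 -0.26, edgeR adjusted p = 0.00201), IKBKG fell as well (log2 -0.23, edgeR adjusted p = 0.0263), and IKBKB, at log2 0.05, did not pass (edgeR adjusted p = 0.551). MAP3K14, the kinase of the noncanonical route, was also lower (log2 -0.24, edgeR adjusted p = 0.0374) and was likewise named after its value was seen. The calls of SHARPIN, CHUK, IKBKG and MAP3K14 were not followed over the 17 alternatives.

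Of 41 receptor and ligand genes 20 could be tested, of which 8 rose, 5 fell and 7 did not pass, or 65.0% called against 41.4% of all tested genes. The median log2 fold change was 0.15, against -0.0044 for all tested genes. Genes such as IL18 and TLR5 passed the count filter through 1 genotype, which selects for a difference. When a mean of at least 2 CPM was required, 9 in place of 13 genes were called. That filter also took genes of the list out of the test, IL18 and TLR5 among them, so the lower count is not a lower share. Over all genes it left 5702 called of 12603 tested. The difference of the 65.0% from the share of all genes was not tested. TNFRSF19, a TNF receptor family gene, rose 5.40-fold to 4.44 ± 0.0562 CPM in MLL4KO, against 0.897 ± 0.402 CPM in MLL4WT (edgeR adjusted p = 2.39e-05). IL1R1, the signalling interleukin-1 receptor, rose 1.73-fold to 19.6 ± 1.22 CPM in MLL4KO, against 11.2 ± 0.802 CPM in MLL4WT (edgeR adjusted p = 3.89e-05). TNFRSF11A, which encodes the receptor RANK, rose 1.85-fold, and TLR5, the flagellin receptor, rose 3.29-fold to 1.79 CPM, against 0.523 CPM in MLL4WT (edgeR adjusted p = 0.000331 and 0.000889). TNFRSF12A, the receptor of the ligand TWEAK, fell 1.68-fold to 72.8 ± 4.08 CPM in MLL4KO, against 122 ± 13.9 CPM in MLL4WT, and LTBR, the lymphotoxin-beta receptor that feeds the noncanonical route, fell 1.29-fold (edgeR adjusted p = 1.96e-05 and 0.000336). TLR6 fell 1.66-fold (edgeR adjusted p = 0.00726). IL18, an interleukin-1 family cytokine, had 0, 2 and 2 counts in the MLL4KO libraries and 21, 41 and 41 in the MLL4WT libraries (edgeR adjusted p = 1.27e-05). Of the 21 genes of this list that were not tested, none had more than 8 counts in any library, and TNF itself had 0 counts in MLL4KO and 3 in MLL4WT over the group.

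Inflammatory target genes were low or at 0 in many cases, in both genotypes. Of 73 matched genes 26 had too few counts to be tested, with at most 16 counts in any library, and these included CXCL1, CXCL2, CCL20, IL6, ICAM1 and VCAM1, named after their values were seen. ICAM1, an adhesion receptor, had 16, 6 and 13 counts in the MLL4KO libraries and 1, 4 and 4 in the MLL4WT libraries, without a test. CXCL8, the neutrophil chemokine, had 23, 19 and 16 counts in the MLL4KO libraries and 6, 20 and 24 in the MLL4WT libraries (log2 -0.17, edgeR adjusted p = 0.691). Of the 47 tested 8 rose, 18 fell and 21 did not pass (55.3% called against 41.4% of all tested genes, median log2 -0.11), a share that the count filter also bears on and whose difference was not tested. The smallest adjusted p was that of LAMB3, a laminin chain gene, which fell to 8.47 ± 0.452 CPM in MLL4KO, against 29.4 ± 0.813 CPM in MLL4WT, or 3.47-fold (edgeR adjusted p = 1.59e-08). KLF6, an early-response transcription factor gene, fell 1.74-fold, the adhesion receptor gene CD44 1.51-fold and the survival gene BCL2L1 1.68-fold (edgeR adjusted p between 1.65e-07 and 1.49e-06). TGM2, a transglutaminase gene, rose 3.54-fold to 11.8 ± 1.22 CPM in MLL4KO, against 3.33 ± 0.104 CPM in MLL4WT, and CD83, an immunoglobulin-family surface protein gene, rose 1.89-fold to 28.5 ± 1.27 CPM, against 15.0 ± 0.567 CPM (edgeR adjusted p = 1.20e-06 and 2.31e-06). CD82, a tetraspanin gene, rose 1.70-fold and GCH1, of tetrahydrobiopterin synthesis, 1.18-fold (edgeR adjusted p = 0.00120 and 0.00986). Many of these targets are also controlled by AP-1, STAT and other factors.

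**Figure D4:**
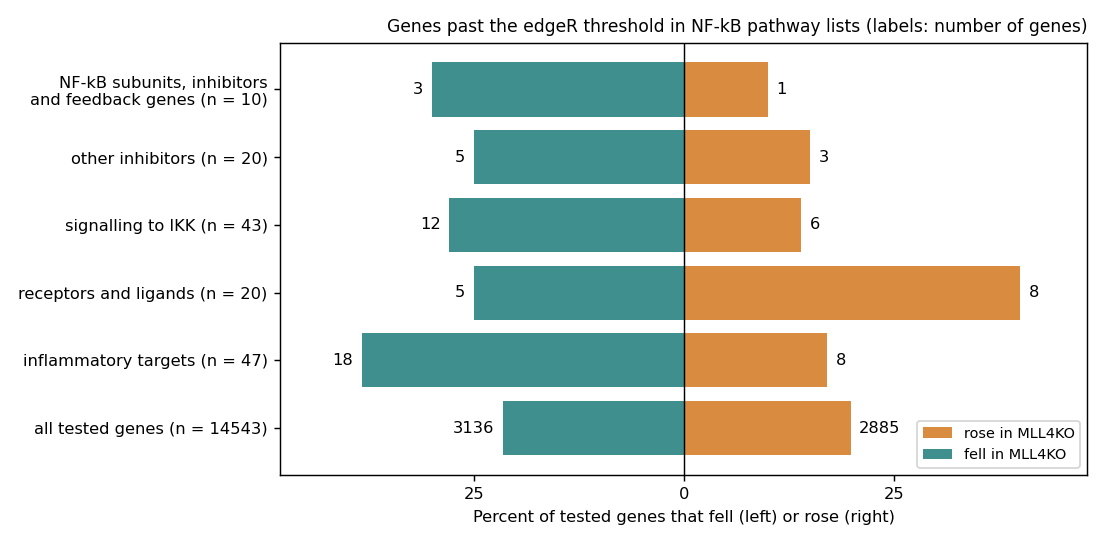
Percent of tested genes that fell (left of 0, teal) or rose (right of 0, orange) in MLL4KO in the NF-kB set, in 4 pathway lists and in all tested genes, with the number of genes beside each bar. The NF-kB set, the IkB-like and negative regulator genes (labelled other inhibitors) and the signalling genes are called in 40.0% to 41.9% of genes. That is near the 41.4% of all tested genes. Of receptors and ligands 65.0% and of inflammatory targets 55.3% are called among those that passed the count filter.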

How the data were processed

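The authors deposited estimated counts per gene, as whole numbers without normalisation, for 3 MLL4KO and 3 MLL4WT libraries, per the file headers and the values. Salmon 1.8.0, DESeq2 1.44.0 and hg38 are named in the submitters' processing notes without a role, and neither the annotation release nor a strand setting is stated there. Every ID named a gene, and groups came from sample titles.

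Genes were filtered with filterByExpr of edgeR 4.0.16 (R 4.3.3), which kept 14543 genes with 99.9% of the counts, scaled by TMM and tested by the robust quasi-likelihood test without covariates, with Benjamini-Hochberg adjustment over all of them and a threshold of 0.05. SE and 95% intervals came from the F statistic. CPM used the same scaling. Coordinates and exon lengths came from GENCODE release 29 on GRCh38, and motifs were searched in RefSeq windows. The shallowest library holds 3 counts at 0.439 CPM.

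The members and the pathway lists were chosen with earlier results of these data known, as were the tests. SOD2 was not matched to an ID. Genes named by rule are all members, KMT2D and KMT2B, and up to 4 called genes per direction from each pathway list by adjusted p. Cell type markers and the genes most like NFKBIA were also set by rule. Other pathway genes were named outside this rule after their values were seen, BCL3, NFKBIZ, NFKBID, TNF and CXCL8 included. The 17 alternatives included other scalings and filters, DESeq2 1.42.0, limma-voom from limma 3.58.1, a replicate block, a term for the presumed flow cell code, thinning, leaving out each library and, added after seeing the data, removal of GC and length trends by lowess with a span of 0.3. The test was also run on simulated counts with 200 changed genes, the outcome of which is not given here.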

Additional observations from a re-analysis of the deposited data

How the results depend on the processing

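All 10 NF-kB genes kept their direction under all 17 alternatives. The count of members that rose, 1 in the edgeR fit, was 2 with total counts alone, upper quartile factors, no filter or limma-voom (RELB added each time), 3 with a flow cell term or with GC and length trends removed (RELB and NFKBIA added), and 0 when all libraries were thinned to the smallest total. Leaving out each library gave 1 to 3 members that rose, with 3 in the fit without MLL4WT replicate 1, and 2 to 3 that fell. The flow cell term likewise gives MLL4WT replicate 1 no weight in the genotype difference, because no other library has its code. The counts called in the 4 pathway lists stayed within 1.5 times. Total counts alone moved the balance over all genes to 3706 that rose and 2394 that fell, and upper quartile factors to 3561 and 2475, against 2885 and 3136 with TMM. Deviations of same-numbered libraries from their group means correlated at 0.02, 0.03 and 0.01, and those of differently numbered libraries at -0.06 to 0.03. No deviation shared by replicate number was thus seen. Such values cannot exclude that libraries were paired, which the labels do not state. The replicate block gave 1 member that rose and 2 that fell and 5713 called genes in place of 6021. Counts of BIRC3 and of most cytokine genes were too low for small differences to be detectable. The causes were not tested.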

Other observations

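Among tested genes within 250000 bases of the 10 NF-kB genes, 9 rose and 30 fell of 95. Of all 14543 tested genes, 2885 rose (19.8%) and 3136 fell (21.6%). In the 3 neighbourhoods with the most tested genes, 0 rose and 11 fell of 23 around RELA, 4 rose and 3 fell of 16 around RELB, and 3 rose and 5 fell of 15 around NFKB2. Of the others, 0 rose and 4 fell of 13 around NFKBIB, 0 and 3 of 8 around NFKBIE, 1 and 1 of 6 around REL, 0 and 1 of 4 around NFKB1, 1 and 1 of 4 around NFKBIA, 0 and 1 of 2 around TNFAIP3, and 0 and 0 of 4 around BIRC3, all by the edgeR test. The difference between neighbourhoods was not tested.

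By Pearson's r of log2(CPM + 1) over the 6 libraries, A4GALT (r = 0.997), ZNF280C (r = 0.989) and MCU (r = 0.985) varied most like NFKBIA among 11367 genes with at least 5 CPM. These libraries share 2 genotypes and unequal depth. The named genes were picked as the highest of 11367 correlations over 6 libraries, which selects for high values. A link to NFKBIA was not tested.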
